A study of Homo sapiens with 9 samples.

Results

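The genes described here deiodinate, carry and bind thyroid hormone: the deiodinases DIO1, DIO2 and DIO3, the transporters SLC7A5, SLC7A8, SLC3A2, SLC16A10 and SLCO1C1, and the binding proteins CRYM and TTR. They were chosen by symbol, and every probe set whose platform annotation gives exactly 1 of these symbols was taken. All 10 genes were found, on 17 of the 22215 probe sets tested, among 11963 genes named in this way. DIO2 has 4 probe sets, SLC7A8 has 5 and each of the other 8 genes has 1. A probe set is a group of short probes for a transcript, and endings _s_at and _x_at mark sets whose probes can match more than 1 transcript or sequence.

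Transcript levels were measured on Affymetrix arrays in HepG2, an established human hepatoma cell line, with 3 arrays per group and 9 in all. GC-1 cells received 10 nM GC-1 for 24 h. T3 cells received 10 nM T3 for 24 h, and vehicle cells received vehicle for 24 h. All groups were kept in serum depleted of thyroid hormone, so the vehicle cells are hormone-poor rather than cells in ordinary serum. T3 is the natural active hormone. GC-1, also known as sobetirome, is a synthetic receptor agonist with carbon groups in the places where T3 carries iodine, so it has no iodine for a deiodinase to remove.

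Deiodinases are selenoenzymes that remove single iodine atoms from thyroid hormones. Removal from the outer ring turns the prohormone T4 into T3, and removal from the inner ring inactivates the hormone. The hormones cross membranes through carriers that also move amino acids or organic anions, travel in plasma on binding proteins, and are held inside some cells by cytosolic binders. The liver, from which HepG2 derives, is known for DIO1 activity and for secreting TTR.

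The results turn on DIO1 and SLC7A5, so their RefSeq promoter windows (GRCh38.p14, 250 bases before to 50 bases after a transcript start) are shown, 5′ to 3′ on the gene's strand. DIO1 lies at chr1:53893937-53894236 on the plus strand and SLC7A5 at chr16:87869458-87869757 on the minus strand. Capitals mark, in DIO1, the thyroid hormone receptor half-sites AGGTCA and GGGTCA, which here lie on the opposite strand and so read TGACCT and TGACCC, and, in SLC7A5, CACGTG, the E-box that MYC can bind.
DIO1: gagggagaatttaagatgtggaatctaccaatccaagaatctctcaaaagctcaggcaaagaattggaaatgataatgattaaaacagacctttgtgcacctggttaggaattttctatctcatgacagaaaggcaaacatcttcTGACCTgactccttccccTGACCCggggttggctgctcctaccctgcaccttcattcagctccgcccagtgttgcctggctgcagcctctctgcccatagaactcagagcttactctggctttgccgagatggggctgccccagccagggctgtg
SLC7A5: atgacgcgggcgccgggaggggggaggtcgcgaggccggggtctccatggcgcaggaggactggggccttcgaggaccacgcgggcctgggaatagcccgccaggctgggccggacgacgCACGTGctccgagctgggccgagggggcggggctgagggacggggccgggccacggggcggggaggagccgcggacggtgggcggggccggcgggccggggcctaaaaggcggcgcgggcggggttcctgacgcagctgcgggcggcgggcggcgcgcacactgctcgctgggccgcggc

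Both strands were searched, and no motif match here overlaps another. In the DIO1 window the TGACCT match lies at -105 to -100 from the transcript start and the TGACCC match at -87 to -82, with 12 bases between them. Among 35114 RefSeq promoter windows of the same length, 13.8% hold AGGTCA, 14.1% hold GGGTCA and 2.29% hold both. A classical receptor element, 2 copies of AGGTCA on the same strand with 4 bases between them, is not in the DIO1 window and is in 0.0199% of all windows. SLC7A5 holds no half-site, and its CACGTG at -130 to -125 is a match that 7.26% of windows share, 1 of the 4 windows of SLC7A8 among them. Windows were found for 7 of the 10 genes, and SLC16A10, whose transcript passed no test below, also holds both half-sites. A match describes letters and was not tested as a binding site.

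The deposited values are on a log2 scale, and a difference is a difference of log2 means. A probe set was called at an adjusted p under 0.05, from limma across all 22215 probe sets with Benjamini-Hochberg adjustment. Array medians ran from 7.01 to 7.06. The interquartile range, the spread of values within an array, was 2.99 and 2.97 on T3 replicates 1 and 2, above the 2.83 to 2.88 of the other 7 arrays. All 9 hepatocyte markers were bright, with vehicle means of 11.6 to 14.4. Of 10 measured markers of other cell types, 0 passed the test in either ligand comparison. Their vehicle means ran from 4.83 (CDH5) to 9.89 (VIL1, an epithelial microvillus gene). The blood cell marker PTPRC stood at 4.88 and the T cell marker CD3E at 7.07, near the array medians. KLF9, a textbook target of the hormone receptor, rose on its brightest probe set by 1.13 with GC-1 (limma adjusted p = 0.000105). With T3 it rose there by 1.17 (adjusted p = 4.75e-05), and over its 3 probe sets the T3 differences ran from 0.12 to 1.60. Of 10 measured receptors, partners and known targets, 5 rose with each ligand and 0 fell. Of all probe sets, 1.81% rose with GC-1 and 4.00% with T3. The list was chosen with earlier results of these data known, so its count is not an independent check. HR in that list differed by -0.03 with GC-1 and 0.01 with T3 and was not called. Whether the replicates were separate cultures is not said in the labels, and every p-value here is set by how much these arrays vary, which may be technical. In such bulk RNA, a change in the number of cells that express a gene and a change in RNA per cell cannot be told apart.

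**Figure D1:**
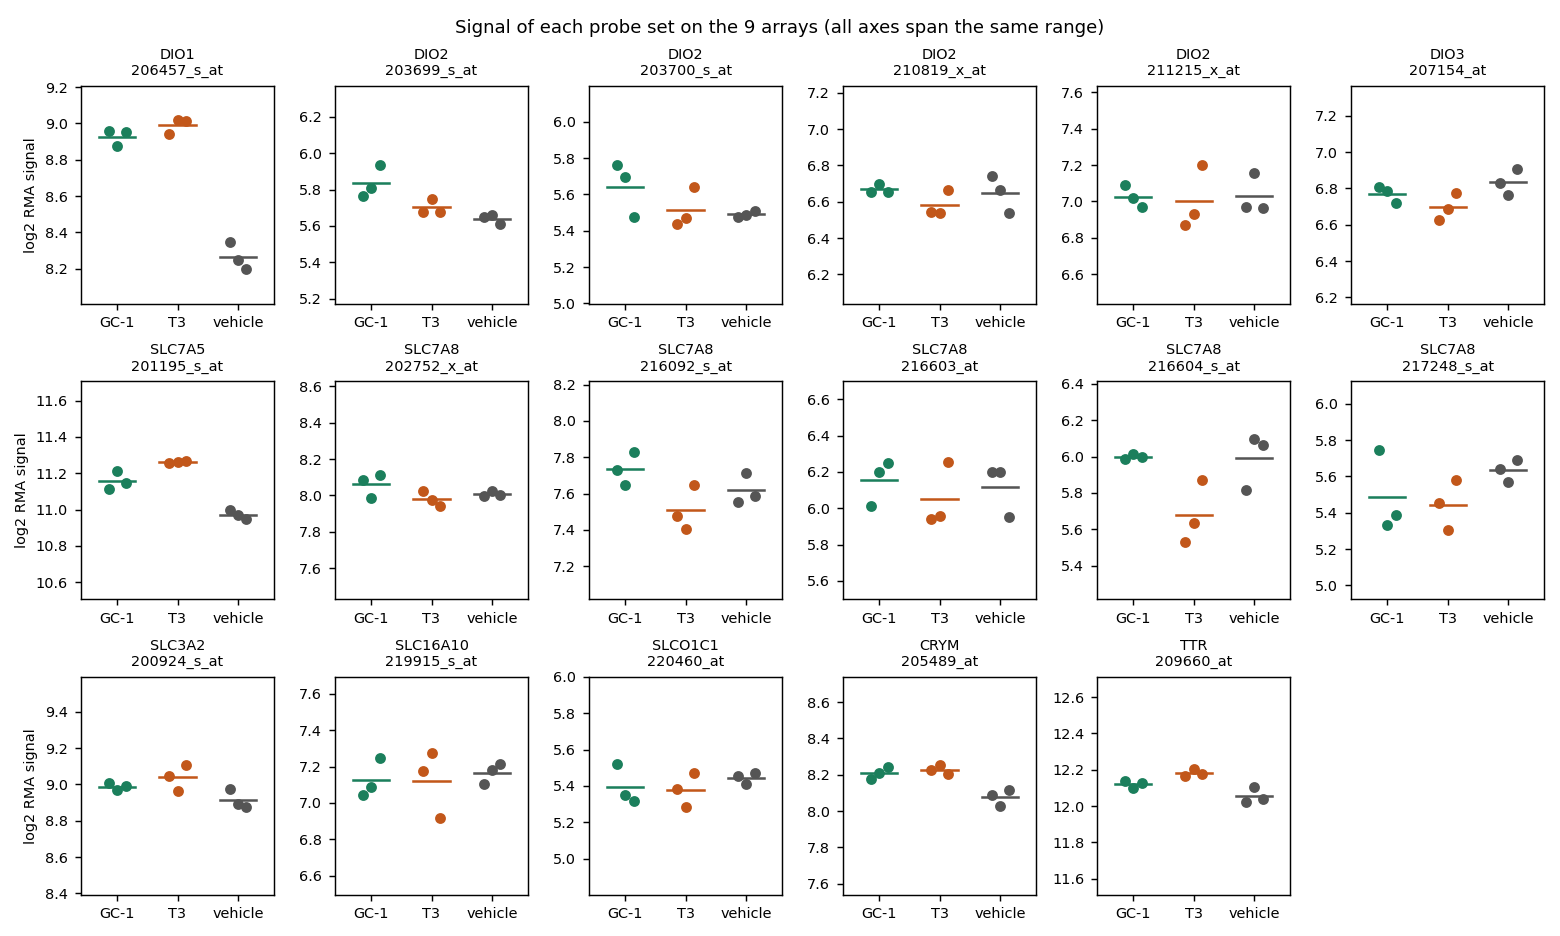
Log2 signal of the 17 probe sets on every array, with GC-1, T3 and vehicle from left to right. Points are arrays and bars are group means, and each vertical axis spans the same number of log2 units. On DIO1 all 6 ligand-treated arrays stand at 8.88 or above, over the vehicle arrays at 8.20 to 8.35. On most other probe sets the groups overlap.

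With GC-1, 1 of the 17 probe sets rose (DIO1) and 0 fell, where 1.81% of all probe sets rose and 0.986% fell. With T3, 2 rose (DIO1 and SLC7A5) and 0 fell, where 4.00% of all probe sets rose and 1.5% fell. The shares called higher stand above these backgrounds by no more than 2 probe sets of 17. The arrays of the groups did not overlap for 4 probe sets between GC-1 and vehicle, where 26.5% of all probe sets did not overlap. For T3 against vehicle this held for 5 probe sets, where 24.9% of all did, so these shares are near the background. The median difference over the 17 probe sets was 0.05 with GC-1 (all probe sets -0.0043) and -0.03 with T3 (all probe sets -0.015). GC-1 and T3 were set against the same 3 vehicle arrays, so their differences from vehicle share that error.

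DIO1, the liver and kidney deiodinase that can remove iodine from either ring, was the gene that moved most. Its log2 signal was 8.96, 8.88 and 8.95 in GC-1 cells and 8.94, 9.02 and 9.02 in T3 cells, against 8.35, 8.25 and 8.20 in vehicle cells. Every ligand-treated array was above every vehicle array, and the arrays of the ligands overlapped each other. The GC-1 mean was 8.93 ± 0.046, the T3 mean 8.99 ± 0.043 and the vehicle mean 8.27 ± 0.077 (SD, n = 3 each). With GC-1 the transcript rose by 0.66, or 1.58-fold (95% confidence interval 1.45 to 1.72; limma adjusted p = 7.29e-05). With T3 it rose by 0.73, or 1.65-fold (interval 1.52 to 1.80; adjusted p = 2.18e-05). DIO1 was called for both ligands under all 18 alternative settings tried. Its mean signal over the 9 arrays was higher than 75.1% of all probe sets. The 1 probe set for DIO1 leaves no second measure of the gene on these arrays.

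DIO2, the outer-ring deiodinase that makes T3 inside cells, has 4 probe sets, and 0 of them passed the test in either ligand comparison. On 203699_s_at the log2 signal was 5.77, 5.81 and 5.93 in GC-1 cells and 5.68, 5.75 and 5.68 in T3 cells, against 5.65, 5.66 and 5.61 in vehicle cells. The GC-1 arrays were above all T3 and vehicle arrays, and the T3 arrays were just above the vehicle arrays. The GC-1 difference from vehicle was 0.20, or 1.15-fold (limma adjusted p = 0.0962), and it was called under 1 alternative, array quality weights (adjusted p = 0.0332). The T3 difference was 0.06 (adjusted p = 0.564). This probe set was dim, brighter than 22.5% of all probe sets.

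The other 3 DIO2 probe sets did not separate the groups. On 203700_s_at the difference from vehicle was 0.15 with GC-1 (limma adjusted p = 0.376) and 0.02 with T3 (adjusted p = 0.898). On 210819_x_at it was 0.02 with GC-1 and -0.07 with T3. On 211215_x_at it was -0.0047 with GC-1 and -0.03 with T3. The DIO2 probe sets therefore differed in sign among themselves, and none of those 3 had its group arrays apart.

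DIO3, the inner-ring deiodinase that inactivates T4 and T3, is known mainly from placenta and fetal tissue. Its log2 signal was 6.81, 6.78 and 6.72 in GC-1 cells and 6.62, 6.68 and 6.78 in T3 cells, against 6.83, 6.77 and 6.91 in vehicle cells. The arrays of each ligand overlapped those of vehicle. The difference from vehicle was -0.06 with GC-1 (limma adjusted p = 0.660) and -0.14 with T3 (adjusted p = 0.200). Of the 3 deiodinase genes, then, DIO1 was called, and DIO2 and DIO3 were not. DIO3 was brighter than 45.2% of all probe sets, and the DIO2 probe sets were brighter than 18.8% to 49.7%. Whether DIO2 or DIO3 stood above background signal was not tested.

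SLC7A5, also called LAT1, exchanges large neutral amino acids across the membrane and carries T3 and T4. Its log2 signal was 11.11, 11.22 and 11.15 in GC-1 cells and 11.26, 11.26 and 11.27 in T3 cells, against 11.0, 10.97 and 10.95 in vehicle cells. The 3 groups did not overlap, with T3 highest, GC-1 between and vehicle lowest. Means were 11.16 ± 0.052 in GC-1 cells, 11.26 ± 0.0051 in T3 cells and 10.97 ± 0.025 in vehicle cells (SD, n = 3 each). With T3 the transcript rose by 0.29, or 1.22-fold (interval 1.14 to 1.32; limma adjusted p = 0.00432), and it was called under all 18 alternatives. With GC-1 the difference was 0.19, or 1.14-fold (interval 1.06 to 1.22; adjusted p = 0.0681), which did not pass the test. The GC-1 call turned with the setting: it passed under 5 of 18 alternatives, and its adjusted p ran from 0.00308 to 0.241. The left-out array among those 5 was T3 replicate 3 (adjusted p = 0.0385).

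SLC3A2, the CD98 heavy chain that brings SLC7A5 and SLC7A8 to the cell surface, gave smaller differences. Its log2 signal was 9.01, 8.97 and 8.99 in GC-1 cells and 9.05, 8.96 and 9.11 in T3 cells, against 8.98, 8.89 and 8.88 in vehicle cells. Each ligand group overlapped vehicle. The difference was 0.07 with GC-1 (limma adjusted p = 0.568) and 0.13 with T3 (adjusted p = 0.212), so the partner chain was not called.

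SLC7A8, also called LAT2, is the other light chain that pairs with SLC3A2 and carries iodothyronines. Of its 5 probe sets, 0 passed the test in either ligand comparison. The largest difference was on 216604_s_at, with a log2 signal of 5.99, 6.01 and 6.0 in GC-1 cells and 5.53, 5.64 and 5.87 in T3 cells, against 5.82, 6.10 and 6.07 in vehicle cells. T3 replicates 1 and 2 were below every other array, and T3 replicate 3 lay above the lowest vehicle array. The T3 difference was -0.31 (limma adjusted p = 0.0755) and the GC-1 difference 0.0053 (adjusted p = 0.988).

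The low T3 replicates on SLC7A8 216604_s_at are the arrays with the wide interquartile range. With that range as a covariate the T3 difference was -0.12 (limma adjusted p = 0.535). With T3 replicates 1 and 2 left out it was -0.12 (adjusted p = 0.499), where the lone T3 array takes its spread from the GC-1 and vehicle arrays. Without T3 replicate 3 it was -0.41 (adjusted p = 0.0182), and without vehicle replicate 1 its adjusted p was 0.0386, so both omissions gave a call. With all 9 arrays kept, a mean trend and robust spread gave -0.31 (adjusted p = 0.0461) and array quality weights gave -0.37 (adjusted p = 0.0229), which are calls too.

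On the remaining SLC7A8 probe sets the difference from vehicle lay between -0.14 and 0.12 with GC-1 and between -0.19 and -0.03 with T3. The most negative value with each ligand was on 217248_s_at (limma adjusted p = 0.550 with GC-1 and 0.330 with T3). The brightest set, 202752_x_at, differed by 0.05 with GC-1 and by -0.03 with T3 (adjusted p = 0.682 and 0.816). Over the 5 sets the GC-1 differences from vehicle took both signs. All 5 were negative for T3 minus vehicle and all 5 positive for GC-1 minus T3, but these comparisons share the same 3 T3 arrays, and 0 of the 10 differences were called.

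SLC16A10, a carrier of aromatic amino acids that also moves T3 and T4, had a log2 signal of 7.04, 7.09 and 7.25 in GC-1 cells and 7.18, 7.27 and 6.92 in T3 cells, against 7.10, 7.18 and 7.22 in vehicle cells. The groups overlapped, and the difference was -0.04 with GC-1 and -0.05 with T3 (limma adjusted p = 0.879 and 0.817). SLCO1C1, an organic anion transporter best known for T4 uptake at brain capillaries, had 5.52, 5.35 and 5.32 in GC-1 cells and 5.38, 5.28 and 5.47 in T3 cells, against 5.45, 5.41 and 5.47 in vehicle cells. Its groups overlapped too, at a signal brighter than 16.1% of all probe sets, and the difference was -0.05 with GC-1 and -0.07 with T3 (adjusted p = 0.800 and 0.629).

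CRYM, or mu-crystallin, is a cytosolic protein that binds T3. Its log2 signal was 8.18, 8.21 and 8.24 in GC-1 cells and 8.23, 8.25 and 8.21 in T3 cells, against 8.09, 8.03 and 8.12 in vehicle cells. All 6 ligand-treated arrays were above the vehicle arrays, and the ligands overlapped each other. The difference was 0.13 with GC-1 (interval 0.03 to 0.24; limma adjusted p = 0.203) and 0.15 with T3 (interval 0.05 to 0.26; adjusted p = 0.0996). Neither passed the test across all probe sets.

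TTR, or transthyretin, is a plasma carrier of T4 and of the retinol-binding protein. Its log2 signal was 12.14, 12.10 and 12.13 in GC-1 cells and 12.16, 12.20 and 12.18 in T3 cells, against 12.02, 12.11 and 12.04 in vehicle cells. The T3 arrays were above all others, and the GC-1 arrays overlapped those of vehicle. The difference was 0.07 with GC-1 (limma adjusted p = 0.546) and 0.12 with T3 (interval 0.02 to 0.23; adjusted p = 0.155). The T3 difference was called under 1 of 18 alternatives, the moderated test with a mean trend and robust spread (adjusted p = 0.0140). The signal was brighter than 97.9% of all probe sets.

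**Figure D2:**
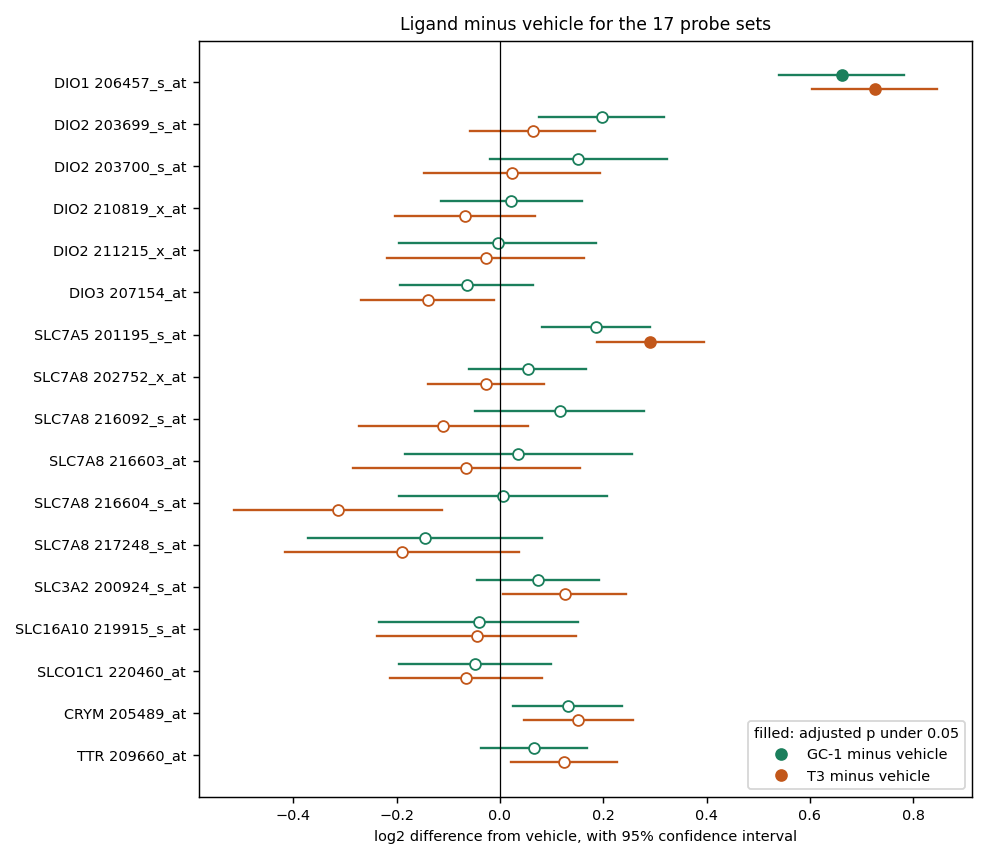
Log2 difference from vehicle for each of the 17 probe sets, GC-1 and T3 drawn side by side, with 95% confidence intervals. Filled points passed an adjusted p of 0.05. DIO1 is filled for both ligands, at 0.66 with GC-1 and 0.73 with T3, and SLC7A5 is filled for T3 alone, at 0.29, which does not show that the ligands differ there.

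The intervals bound the differences in signal, each probe set taken by itself rather than all 17 jointly. On dim probe sets they need not bound a change in RNA. For each ligand 16 of the 17 intervals lay within 1.5-fold of vehicle in either direction, DIO1 being the exception with GC-1 and with T3. At an unadjusted p under 0.05 there were 4 of the 17 probe sets with GC-1, where 15.9% of all probe sets were, and 7 with T3, where 21.1% of all were.

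GC-1 and T3 were then compared with each other at the matched dose and time, as 17 pairs with p-values adjusted over all 22215 probe sets. Of the 17, 0 were called by limma, where 0% of all probe sets were higher and 0% lower, and 4 had an unadjusted p under 0.05, where 14.1% of all probe sets did. Another limma setting, with a mean trend and robust spread, called 22 probe sets in all and none of these. The arrays did not overlap for 4 of them, where 18.0% of all probe sets did not overlap: DIO2 203699_s_at and SLC7A8 216604_s_at were higher with GC-1, and SLC7A5 and TTR lower. All 17 intervals lay within 1.5-fold. A difference smaller than that is not excluded by these intervals.

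DIO1 differed by -0.06 between GC-1 and T3, a ratio of 0.957 (interval 0.879 to 1.04; limma adjusted p = 0.623). SLC7A5 differed by -0.10 (interval -0.21 to -0.0003; adjusted p = 0.355). DIO2 203699_s_at differed by 0.13 (interval 0.01 to 0.26; adjusted p = 0.321). None of these was called, and the first interval spans 0. SLC7A8 216604_s_at differed most, by 0.32 (interval 0.12 to 0.52; adjusted p = 0.220), and 216092_s_at by 0.23 (interval 0.06 to 0.39; adjusted p = 0.250). On 216604_s_at the difference was 0.04 with the interquartile range as a covariate (adjusted p = 0.902) and 0.41 without T3 replicate 3 (adjusted p = 0.0468), which is a call that rests on the omission of that array. CRYM and TTR differed by -0.02 and -0.06 between GC-1 and T3 (adjusted p = 0.879 and 0.588).

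**Figure D3:**
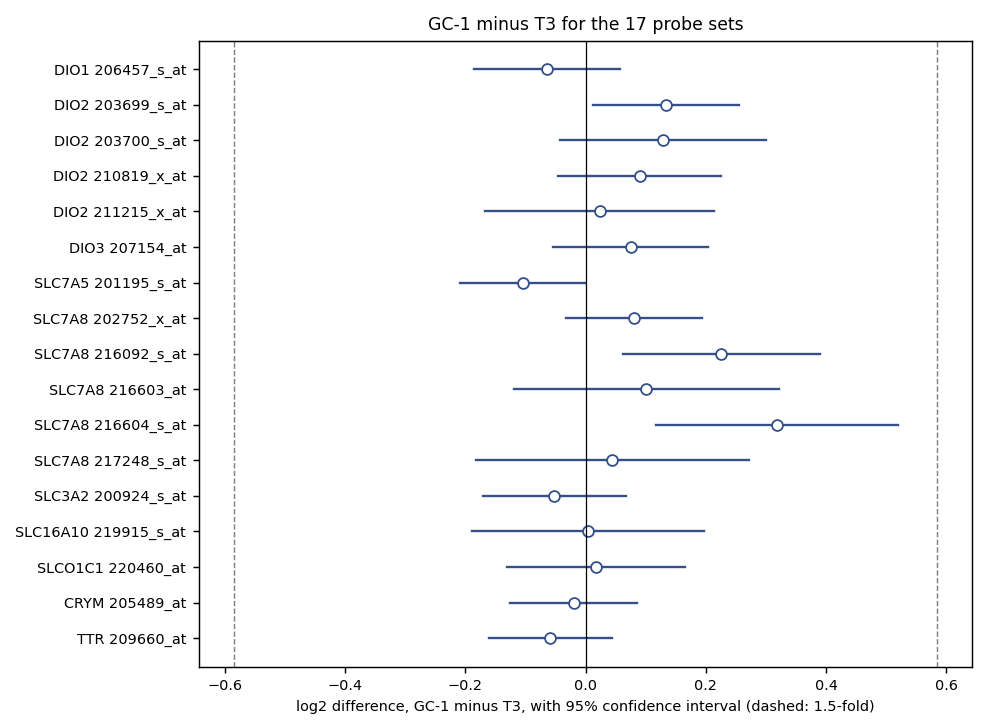
Log2 difference, GC-1 minus T3, for the 17 probe sets with 95% confidence intervals. Open points did not pass an adjusted p of 0.05, the dashed lines stand at 1.5-fold either way, and all 17 intervals lie between them, the widest departure from 0 being SLC7A8 216604_s_at at 0.32.

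The genes whose pattern was most like that of DIO1 were found by the root mean square distance, over the 9 arrays, of each gene's difference from its own vehicle mean, among 11963 genes. The nearest 5 were STOM (0.0588), APOC1 (0.0621), FGB (0.0633), HP (0.0688) and EBI3 (0.0792). STOM encodes a membrane protein, APOC1 a lipoprotein component, FGB a fibrinogen chain, HP haptoglobin and EBI3 a cytokine subunit. Their differences from vehicle lay between 0.60 (HP) and 0.69 (APOC1) with GC-1 and between 0.67 (STOM) and 0.77 (EBI3) with T3. For SLC7A5 the nearest were KHNYN (0.0298), LTBP3 (0.0336), CST3 (0.0351), TCEA2 (0.0364) and TNIP1 (0.0371). Their differences lay between 0.17 (TCEA2) and 0.22 (CST3) with GC-1 and between 0.24 (TNIP1) and 0.30 (LTBP3) with T3. These genes were picked for their pattern, so their differences are a description.

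Other genes of the same pathway were counted in 8 lists, each gene represented by its brightest probe set. Of 125 listed genes 97 were measured. With GC-1, 6 rose and 0 fell. With T3, 10 rose and 3 fell. The shares of all probe sets called with GC-1 were 1.81% higher and 0.986% lower, and those called with T3 were 4.00% higher and 1.5% lower. These shares count every probe set, dim ones included, while a listed gene is counted on its brightest set, so the units are unlike. The lists were read by their counts and medians, beside the all-probe-set medians of -0.0043 with GC-1 and -0.015 with T3 given above.

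Sulfotransferases and glucuronosyltransferases dispose of the hormone by conjugation, and UGT2B4 in that list had the largest difference of the 97 genes with each ligand. Of 8 measured genes of 15 listed, 2 rose with GC-1 and 3 rose and 1 fell with T3, with medians of 0.08 with GC-1 and -0.05 with T3. UGT2B4, a glucuronosyltransferase of the liver known for bile acid and steroid substrates, averaged 7.38 in GC-1 cells and 7.38 in T3 cells, against 6.18 in vehicle cells. It rose by 1.20 with GC-1 (limma adjusted p = 1.02e-05) and by 1.20 with T3 (adjusted p = 5.38e-06). SULT2A1, which sulfates bile acids and steroids, rose by 0.51 with GC-1 (adjusted p = 0.000231) and 0.62 with T3 (adjusted p = 3.79e-05). SULT1A1, which sulfates phenols including iodothyronines, rose by 0.36 with T3 (adjusted p = 0.0126). Its GC-1 difference was 0.24 (adjusted p = 0.117). SULT1E1, the estrogen sulfotransferase, averaged 5.88 in T3 cells against 6.23 in vehicle cells, and fell by 0.34 with T3 (adjusted p = 0.00919). With GC-1 the SULT1E1 difference was -0.18 (adjusted p = 0.191). UGT2B4 and SULT2A1, the members called with both ligands, are better known for bile acids and steroids than for iodothyronines.

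Among 10 other binding proteins measured of 11 listed, 1 rose with GC-1 and 3 rose with T3, and 0 fell, with medians of 0.11 and 0.12. APOE, an apolipoprotein, rose by 0.29 with GC-1 (limma adjusted p = 0.0482) and 0.41 with T3 (adjusted p = 0.00494). RBP4, the retinol carrier that travels with TTR, differed by 0.20 with GC-1 (adjusted p = 0.0713) and rose by 0.25 with T3 (adjusted p = 0.0162). APOB differed by 0.15 with GC-1 (adjusted p = 0.164) and rose by 0.21 with T3 (adjusted p = 0.0419). The called members are lipoprotein and retinol carriers, and the dedicated plasma carrier SERPINA7, or thyroxine-binding globulin, which was added by name after its values were seen, differed by -0.03 with GC-1 and -0.02 with T3.

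Of 10 other thyroid hormone transporters measured of 13 listed, 0 passed the test with either ligand in limma. At an unadjusted p under 0.05 there were 2 with GC-1 and 5 with T3, where 15.9% and 21.1% of all probe sets were. The medians were 0.05 with GC-1 and -0.06 with T3. The organic anion transporters SLCO2B1 and SLCO4C1 differed by 0.20 (adjusted p = 0.0632) and -0.23 (adjusted p = 0.0967) with T3. With GC-1 they differed by 0.07 (adjusted p = 0.595) and -0.23 (adjusted p = 0.126). Over the probe sets of each gene the T3 differences ran from 0.05 to 0.20 for SLCO2B1 and from -0.23 to -0.14 for SLCO4C1. Of 11 other amino acid exchangers and partner chains measured of 12 listed, 0 were called with GC-1 and 1 fell with T3, with medians of -0.03 and -0.06. That gene was SLC7A11, the cystine and glutamate exchanger, which shares the SLC3A2 partner. Over its 3 probe sets the T3 differences ran from -0.49 to -0.24. On the brightest set SLC7A11 averaged 8.35 in GC-1 cells and 8.20 in T3 cells, against 8.69 in vehicle cells. There it fell by 0.49 with T3 (limma adjusted p = 0.0387), while the GC-1 difference was -0.34 (adjusted p = 0.185). The size of the T3 difference turned on T3 replicate 3: it was -0.33 without that array (adjusted p = 0.035), -0.82 with T3 replicates 1 and 2 left out (adjusted p = 0.00297) and -0.83 with the interquartile range as a covariate (adjusted p = 0.00232).

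Deiodinases contain selenocysteine, so the genes of selenoprotein synthesis and deiodinase turnover were counted as well. Of 16 measured of 19 listed, 0 were called with either ligand in limma, with medians of -0.02 with GC-1 and 0.01 with T3. At an unadjusted p under 0.05 there were 2 with each ligand, where 15.9% of all probe sets were with GC-1 and 21.1% with T3. ELOC and WSB1, parts of a ubiquitin ligase that acts on DIO2, differed by 0.20 each with T3 (adjusted p = 0.054 and 0.0638). With GC-1 they differed by 0.14 and 0.10 (adjusted p = 0.209 and 0.422). Over the probe sets of each gene the T3 differences ran from 0.06 to 0.20 for ELOC and from 0.09 to 0.26 for WSB1. Of 10 other selenoproteins measured of 19 listed, 0 were called with GC-1 and 2 rose with T3, with medians of 0.01 and 0.08. GPX3, the secreted glutathione peroxidase, averaged 11.05 in GC-1 cells and 11.33 in T3 cells, against 10.73 in vehicle cells, and rose by 0.60 with T3 (limma adjusted p = 0.00367). Its GC-1 difference was 0.32 (adjusted p = 0.114). GPX4, which reduces lipid peroxides, rose by 0.22 with T3 (adjusted p = 0.0354) and differed by 0.08 with GC-1 (adjusted p = 0.499).

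SLC7A5 is a known target of ATF4, the transcription factor of the amino acid response, and of MYC. Of 20 amino acid response genes measured of 21 listed, 3 rose with GC-1 and 2 rose with T3, and 0 fell, with medians of 0.03 and 0.06. CEBPB, a transcription factor, rose by 0.72 with GC-1 (limma adjusted p = 1.02e-05) and 0.81 with T3 (adjusted p = 2.43e-06). NUPR1, a stress-induced nuclear protein, rose by 0.50 with GC-1 (adjusted p = 0.00218) and 0.68 with T3 (adjusted p = 0.000134). The lipoprotein receptor VLDLR rose by 0.29 with GC-1 (adjusted p = 0.0284) and differed by 0.18 with T3 (adjusted p = 0.114). The other 17 of the 20 with GC-1 and 18 with T3 were not called. ATF4 itself, added by name after its values were seen, differed by 0.03 with GC-1 and 0.02 with T3. At an unadjusted p under 0.05 there were 6 of the 20 with GC-1, where 15.9% of all probe sets were. With T3 there were 9, where 21.1% of all were, and these counts take both directions together. Of 12 genes measured of 15 listed for mTORC1 and MYC, 0 were called with GC-1 and 1 fell with T3, with medians of 0.04 and 0.05. That gene, EIF4E, the cap-binding translation factor, fell by 0.23 with T3 (adjusted p = 0.0355). Its GC-1 difference was -0.16 (adjusted p = 0.173).

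**Figure D4:**
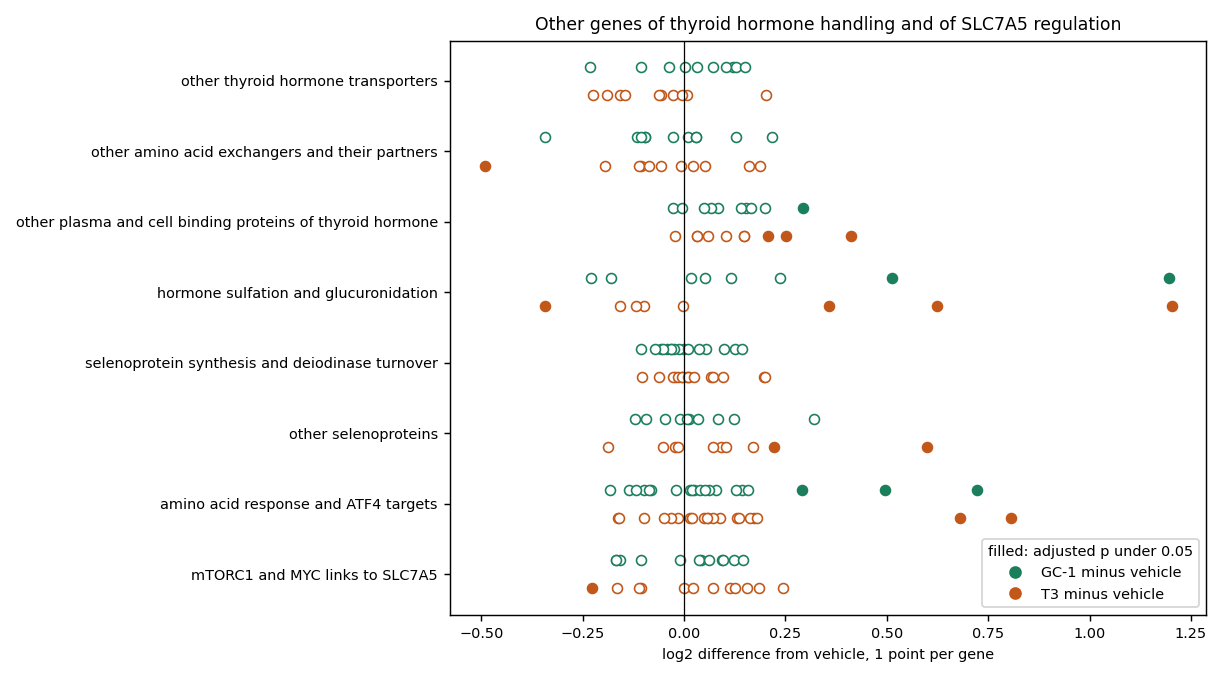
Log2 difference from vehicle for the measured genes of the 8 pathway lists, GC-1 and T3 side by side, 1 point per gene. Filled points passed an adjusted p of 0.05. UGT2B4 stands highest at 1.20 with each ligand, and most of the 97 genes lie near 0.

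Of the 6 pathway genes called with GC-1, 4 were called under all 18 alternatives: UGT2B4, SULT2A1, CEBPB and NUPR1. APOE and VLDLR lost the GC-1 call under 10 and 6 of the 18 alternatives (limma adjusted p up to 0.186 and 0.114). Omissions of single arrays were among these. Of the 13 called with T3, 6 were called under all 18 alternatives: those 4 genes with APOE and SULT1E1. The T3 calls of SLC7A11, RBP4, APOB, SULT1A1, GPX4 and EIF4E were lost when single arrays were left out, with vehicle arrays among them for each. Over all 18 alternatives the T3 call was lost under 13 for APOB, 10 for EIF4E, 9 for GPX4 and 7 for SLC7A11. It was lost under 4 for RBP4 and 2 for SULT1A1. With the replicate number as a block, and with only the compared groups in the fit, APOB, EIF4E, GPX4 and SLC7A11 lost it too. GPX3 lost its T3 call with T3 replicates 1 and 2 left out (adjusted p = 0.0534). Without vehicle replicate 1, 2 or 3 the number called with T3 was 8, 7 and 7.

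In the comparison of GC-1 with T3, 0 genes of the 8 lists were called by limma. At an unadjusted p under 0.05, where 14.1% of all probe sets were, there were 3 of 8 conjugation genes. There were also 3 of 10 other transporters, 3 of 11 exchangers, 2 of 10 other selenoproteins and 2 of 20 amino acid response genes. The mTORC1 and MYC list had 1 of 12, the other binding proteins 0 of 10, and selenoprotein synthesis and deiodinase turnover 0 of 16. The receptors were measured beside them. THRA, the widely expressed receptor, differed on its brightest probe set by -0.06 with GC-1 and -0.07 with T3. Over its 4 probe sets the T3 differences ran from -0.17 to 0.19. THRB, the main liver receptor, differed by -0.35 with GC-1 (limma adjusted p = 0.306) and -0.14 with T3 (adjusted p = 0.655). Neither receptor was called on its brightest set.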

How the data were processed

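RNA of HepG2 cells was measured on 9 Affymetrix arrays, 3 each for GC-1, T3 and vehicle. The deposited log2 values were summarised by the authors with RMA, per the submitters' processing notes. The log base is not stated: values up to 14.5 fit base 2, which RMA uses. The genome build is not given in the sources used here. Probe sets were named from the platform annotation: 19064 have 1 symbol, 1043 several and 2108 none. The 62 array controls were left out.

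All 9 arrays entered 1 limma fit (limma 3.58.1, R 4.3.3: lmFit, eBayes, two-sided), with Benjamini-Hochberg adjustment over 22215 probe sets and no filter. The spread between 3 arrays per group limits the precision, and an exact permutation test of 3 against 3 cannot go below 0.1. The fit was tested on simulated data with independent normal noise. That test does not cover noise shared between arrays or arrays of unequal spread. The members and lists were chosen with earlier results of these data known. All member probe sets are printed. In each list, up to 4 called genes are named, by smallest p over both ligands, or the 2 smallest where none was called. SERPINA7, ATF4 and HR were added by name after their values were seen. THRA, THRB and KLF9 serve as checks, and the 5 nearest genes are named for DIO1 and SLC7A5. Alternatives were other normalizations, other variance models, a filter on probe sets under the 25th percentile of mean signal, array weights, the replicate number as a block, only the groups compared, array spread as a covariate, and each array left out.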

Additional observations from a re-analysis of the deposited data

How the results depend on the processing

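Across 18 alternatives, 0 of 906 member values reversed and 0 lost a call: 834 kept their side of the threshold and their sign, 12 became called and 60 changed sign while uncalled in both. Of 1995 values of other named genes, 0 reversed and 85 lost a call. Counts of calls moved more. With a mean trend and robust spread, the probe sets called became 1347 with GC-1 (622 in the report's fit), 1957 with T3 (1222) and 22 between the ligands (0). Member probe sets called became 2 with GC-1 and 4 with T3, and pathway genes 14 and 25 (6 and 13 in the report's fit). Array weights gave 1435 probe sets, 3 member sets and 12 pathway genes with GC-1. Only the groups compared gave 1061 probe sets and 11 pathway genes with GC-1, and 753 and 8 with T3. Leaving out T3 replicates 1 and 2 repeats that fit for GC-1 against vehicle, since a lone T3 array adds nothing to the spread. In that comparison 1 of the 18 alternatives is therefore not a separate fit. The interquartile range as a covariate gave 2084 probe sets with T3 (932 higher, 1152 lower) and 21 pathway genes. Quantile normalization gave 2 member sets with GC-1. Without dim probe sets there were 2 member sets with GC-1 and 20 pathway genes with T3, and 4 dim member sets have no value. With 1 array left out, calls ranged from 274 to 1272 with GC-1, 661 to 1356 with T3 and 0 to 338 between the ligands, 1272, 1356 and 338 being without T3 replicate 3. The low counts came without any one vehicle or GC-1 array with GC-1 (274 to 292), and without any one vehicle array (661 to 746) or T3 replicate 1 (779) with T3. Member calls ranged from 1 to 2, 2 to 3 and 0 to 1, and pathway genes from 4 to 11 with GC-1 and 7 to 15 with T3. The cause of these moves was not tested. With the replicate number as a block, 347 probe sets were called with GC-1 and 773 with T3. After group means were removed, same-numbered arrays of different groups correlated at -0.262 to 0.0755, and 0 of 9 pairs were over 0.1. Differently numbered arrays of different groups correlated at -0.298 to 0.288. The labels give only a replicate number, and these correlations cannot show whether arrays shared a culture or a batch. Dim probe sets limit DIO2, SLC7A8 and SLCO1C1.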
